A study of Mus musculus with 58 samples.

Results

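Dppa2, Dppa4, Dppa5a, Lin28a, Lin28b, Fbxo15, Utf1 and L1td1 are transcripts of the early embryo and of pluripotent cells. They are 8 of the 24077 genes in a mouse RNA-seq count table. All 8 symbols were present. They were picked by symbol, with 2 measured patterns in view, a lower level in control extraembryonic ectoderm (ExE) than in control morulae and a higher level in mutant than in control ExE. Values on those 2 patterns are therefore given as a description, without tests. Utf1 went against the first pattern, for L1td1 the direction depended on which library was left out, and for Dppa5a it could not be measured.

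The study concerns Pcgf1 and Pcgf6, which encode subunits of variant Polycomb repressive complex 1, the enzyme that places ubiquitin on histone H2A. Groups were Pcgf1/6 double knockout (KO) and wild-type control (CTR) fully grown oocytes (FGO) of strain B6.129, with 2 libraries each. Morulae carried a Pcgf1/6 double maternal knockout (matKO) or were wild type (CTR), with 2 libraries each. ExE, the trophoblast tissue next to the early postimplantation embryo, gave 4 matKO and 2 CTR libraries. All morulae and ExE came from B6.129 females mated to PWK males, so that in matKO embryos the deletion was inherited on the maternal side. The labels do not name a Cre driver or the number of oocytes, embryos or litters behind each library, so p-values measure the spread between these libraries, which may in part be technical.

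Each FGO library held 19805264 to 26364085 counts, each morula library 1299715 to 1685510 and each ExE library 3397585 to 4361832. FGO columns count each gene once, whereas morula and ExE columns count reads assigned to the maternal or the paternal allele, which were added here. A gene without assignable reads is therefore at 0 in morulae and ExE whatever its expression, and levels in CPM, a gene's counts scaled to the same total in every library, are not strictly comparable between FGO and the later stages. On autosomes 1 library stood apart: ExE matKO replicate 3 had 35.1% maternal reads over autosomal genes, against 50.5 to 51.5% in the other 9 morula and ExE libraries. On the X chromosome the maternal share was 99.85, 56.9, 61.2 and 99.85% in the matKO ExE libraries, against 95.8 and 96.4% in CTR ExE. In FGO, Pcgf1 had 34.9 and 22.8 CPM in KO oocytes, against 1406 and 1100 CPM in CTR oocytes, and Pcgf6 had 176.9 and 219.7 CPM in KO oocytes, against 395.8 and 428.7 CPM in CTR oocytes. Both fell (log2 -5.56, SE 0.24, adjusted p = 1.96e-05, and log2 -1.14, SE 0.19, adjusted p = 0.0102, edgeR quasi-likelihood test). In morulae Pcgf1 had at most 4 reads in a library, which checks nothing. Of the Pcgf6 reads, 46.6 and 40.9% were maternal in matKO morulae, against 62.9 and 57.5% in CTR morulae.

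Dppa2 and Dppa4 encode a pair of SAP-domain DNA-binding proteins that act together in mouse embryonic stem (ES) cells, where they are needed for the 2-cell gene programme and protect certain bivalent promoters from DNA methylation. Lin28a and Lin28b encode RNA-binding proteins that block the maturation of let-7 microRNAs, which repress growth and cell cycle genes. Fbxo15 encodes an F-box protein of SCF ubiquitin ligases, Utf1 a chromatin-associated protein that is bound to bivalent genes in ES cells, and L1td1 an RNA-binding protein derived from a LINE-1 element that associates with LIN28 in human ES cells. Dppa5a encodes a small KH-domain protein of pluripotent cells.

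The let-7 seed, bases 2 to 8, is what LIN28-regulated let-7 family members share, and it is in capitals in the following mature mouse sequences from RefSeq (GRCm38.p6), shown because the let-7 target list below rests on it.
mmu-let-7a-5p: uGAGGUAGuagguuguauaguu
mmu-let-7g-5p: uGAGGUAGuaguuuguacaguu

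Variant Polycomb complexes with PCGF6 contain MGA and MAX, which recognise the E-box CACGTG, and E2F6, a relative of the E2F factors, and complexes with PCGF1 contain KDM2B, which binds unmethylated CG dinucleotides. For this reason the 250 bases before the annotated start, from RefSeq promoter entries (GRCm38.p6), are shown for 4 of the 8 members. These bases are written 5' to 3' on the gene's strand with CG dinucleotides and E-boxes in capitals. Windows of the other members were not examined. L1td1 lies on the plus strand (chr4:98726504-98726753), Lin28a on the minus strand (chr4:134018817-134019066), Lin28b on the minus strand (chr10:45470202-45470451) and Utf1 on the plus strand (chr7:139943606-139943855).
L1td1: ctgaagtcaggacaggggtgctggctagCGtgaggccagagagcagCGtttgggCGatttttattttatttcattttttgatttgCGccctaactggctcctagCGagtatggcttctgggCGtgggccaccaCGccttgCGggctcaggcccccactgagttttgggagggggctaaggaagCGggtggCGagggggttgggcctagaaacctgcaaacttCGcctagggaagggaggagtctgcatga
Lin28a: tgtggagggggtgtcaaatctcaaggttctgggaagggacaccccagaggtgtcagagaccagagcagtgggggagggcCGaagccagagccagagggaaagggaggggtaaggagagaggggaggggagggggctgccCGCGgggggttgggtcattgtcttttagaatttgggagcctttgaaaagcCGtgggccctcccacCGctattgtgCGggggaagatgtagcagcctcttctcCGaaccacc
Lin28b: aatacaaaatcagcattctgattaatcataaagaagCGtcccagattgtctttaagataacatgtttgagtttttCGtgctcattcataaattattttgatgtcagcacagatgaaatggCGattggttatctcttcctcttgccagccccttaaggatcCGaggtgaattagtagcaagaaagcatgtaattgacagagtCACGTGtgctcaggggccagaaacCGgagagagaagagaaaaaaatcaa
Utf1: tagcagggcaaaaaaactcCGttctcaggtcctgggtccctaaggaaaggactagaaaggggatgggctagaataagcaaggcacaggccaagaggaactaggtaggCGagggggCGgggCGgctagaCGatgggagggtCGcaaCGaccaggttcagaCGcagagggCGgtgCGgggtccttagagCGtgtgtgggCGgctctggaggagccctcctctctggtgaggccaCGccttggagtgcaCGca
The Lin28a and Lin28b windows lie inside the annotated spans of those genes (chr4:134003330-134019196 and chr10:45376617-45486314), while L1td1 (chr4:98726754-98738486) and Utf1 (chr7:139943856-139945112) begin right after theirs. These windows hold 11 CG dinucleotides at L1td1, 7 at Lin28a, 6 at Lin28b and 14 at Utf1, with a median of 6 over the 32851 promoters of the table. CACGTG, which reads the same on both strands, occurs once, at Lin28b, where it begins 49 bases before the start, and 6.02% of all promoter windows hold it. TTCCCGC, an E2F motif searched on both strands, occurs in none of the 4 windows and in 3.82% of all. A match is only a description of the letters in this window.

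In FGO no member passed the test between KO and CTR oocytes. Of the 8 members, 6 passed the filter on low counts and 0 were called (edgeR, adjusted p under 0.05), where 7.22% of the 13459 genes tested were called (5.35% higher, 1.87% lower). At an unadjusted p under 0.05 there were 2, Dppa5a and Fbxo15, where 21.5% of all genes were, and DESeq2 called 1, Fbxo15. The median log2 change over the 6 members was 0.03, against 0.00 over all genes.

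Dppa5a had 921.6 and 1202 CPM in KO oocytes, against 699.4 and 654.7 CPM in CTR oocytes (log2 0.57, SE 0.21, adjusted p = 0.156). Dppa2 had 116.8 and 166.0 CPM in KO oocytes, against 110.2 and 120.9 CPM in CTR oocytes (log2 0.21, SE 0.23, adjusted p = 0.659). Dppa4 had 8.997 and 20.05 CPM in KO oocytes, against 24.9 and 27.8 CPM in CTR oocytes (log2 -0.92, SE 0.41, adjusted p = 0.265). Both KO libraries lay above both CTR libraries for Dppa5a and below them for Dppa4, while for Dppa2 the groups overlapped. Without KO replicate 2, Dppa4 was called (log2 -1.76, adjusted p = 0.00334), but without KO replicate 1 it was at -0.39 (adjusted p = 0.329). Dppa5a was called without KO replicate 1 (log2 0.83, adjusted p = 0.00242) but was at 0.24 without KO replicate 2 (adjusted p = 0.141).

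Fbxo15 had 19.4 and 20.05 CPM in KO oocytes, against 27.5 and 35.1 CPM in CTR oocytes (log2 -0.76, SE 0.21, adjusted p = 0.0648). Lin28a had 10.04 and 7.37 CPM in KO oocytes, against 4.93 and 5.91 CPM in CTR oocytes (log2 0.57, SE 0.26, adjusted p = 0.251). Lin28b had 13.2 and 10.5 CPM in KO oocytes, against 10.9 and 13.7 CPM in CTR oocytes (log2 -0.16, SE 0.22, adjusted p = 0.746). Without KO replicate 2, Fbxo15 was called (log2 -0.90, adjusted p = 0.0358), and without KO replicate 1 it was not (log2 -0.64, adjusted p = 0.159). The libraries of the 2 genotypes were apart for Fbxo15 and Lin28a and overlapped for Lin28b. Libraries lie apart by this measure for 32.1% of all genes upward and 18.1% downward. Utf1 had 0 counts in all 4 FGO libraries and L1td1 had 0 in both KO libraries, against 3 and 7 counts in CTR libraries. In oocytes a count of 3 corresponds to 0.114 to 0.151 CPM, so Utf1 was below that level.

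**Figure D1:**
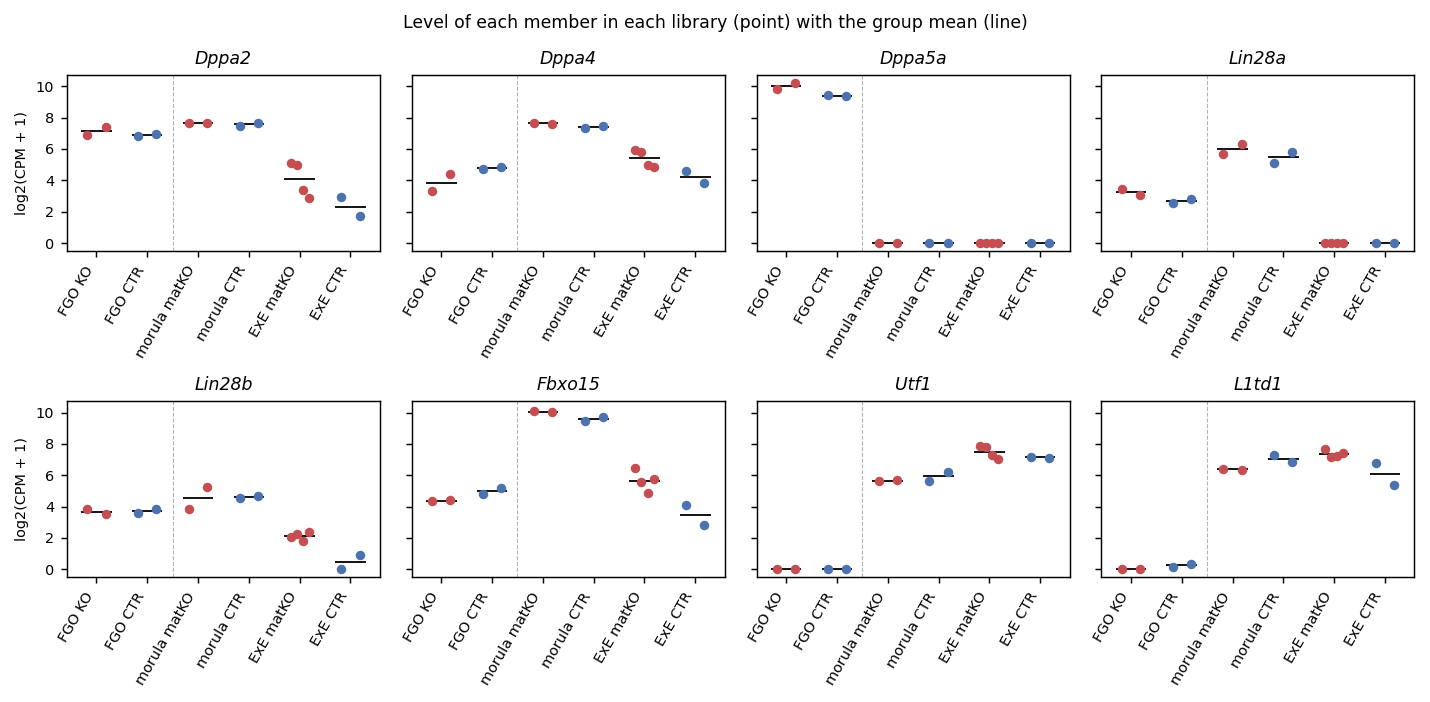
Each panel plots 1 gene, with log2(CPM + 1) on the vertical axis and the 6 groups on the horizontal axis; points are libraries, lines are group means, red is KO or matKO and blue is CTR, and the dashed line parts the FGO columns from the columns summed over alleles. Dppa2, Dppa4, Lin28a, Lin28b and Fbxo15 lie lower in ExE than in morulae, Utf1 lies higher, and Dppa5a is at 0 in all morula and ExE libraries.

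In morulae 7 members had reads, and no member passed the test between matKO and CTR embryos (0 of 7 called by edgeR, 0.132% of 9063 genes called, 0.0221% higher and 0.11% lower). Fbxo15 came nearest. It had 1073 and 1062 CPM in matKO morulae, against 716.7 and 844.8 CPM in CTR morulae (log2 0.49, SE 0.10, adjusted p = 0.0758). It was called by DESeq2 (adjusted p = 0.0129) and without CTR replicate 2 (adjusted p = 0.0097). L1td1 had 84.6 and 80.9 CPM in matKO morulae, against 152.5 and 114.7 CPM in CTR morulae (log2 -0.65, SE 0.19, adjusted p = 0.145). These 2 members had an unadjusted p under 0.05, where 19.8% of all genes did.

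Dppa4 averaged 196 ± 3.98 CPM in matKO morulae and 170 ± 12.4 CPM in CTR morulae (SD, n = 2 each; log2 0.25, adjusted p = 0.329 by edgeR). Dppa2 averaged 199 ± 0.308 CPM in matKO morulae and 191 ± 16.7 CPM in CTR morulae (SD, n = 2 each). Lin28a had 50.0 and 77.9 CPM in matKO morulae, against 33.8 and 54.2 CPM in CTR morulae (log2 0.58, SE 0.34). The libraries overlapped for Dppa2 and Lin28a and lay apart for Dppa4, as they do for 23.5% of all genes upward and 29.5% downward. Lin28b had 13.1 and 37.1 CPM in matKO morulae, against 22.5 and 24.6 CPM in CTR morulae, and Utf1 had 48.5 and 49.7 CPM in matKO morulae, against 48.7 and 73.1 CPM in CTR morulae. The matKO libraries overlapped the CTR libraries for both. The median log2 change over the 7 members was 0.13, against -0.02 over all genes.

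The change of Fbxo15 in morulae differed from its change in FGO. The difference of the 2 log2 changes was 1.24 (SE 0.25, adjusted p = 0.0213, interaction term of edgeR), with KO oocytes lower in 2 of 2 libraries and matKO morulae higher in 2 of 2. It was the only 1 called of the 5 members measured in both stages, where 2.62% of 14719 genes were called. The call was lost without FGO CTR replicate 2, morula CTR replicate 1 or either matKO morula library (adjusted p 0.0524 to 0.11). For Dppa4 the difference was 1.17 (SE 0.47, adjusted p = 0.253) and became a call without FGO KO replicate 2.

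**Figure D2:**
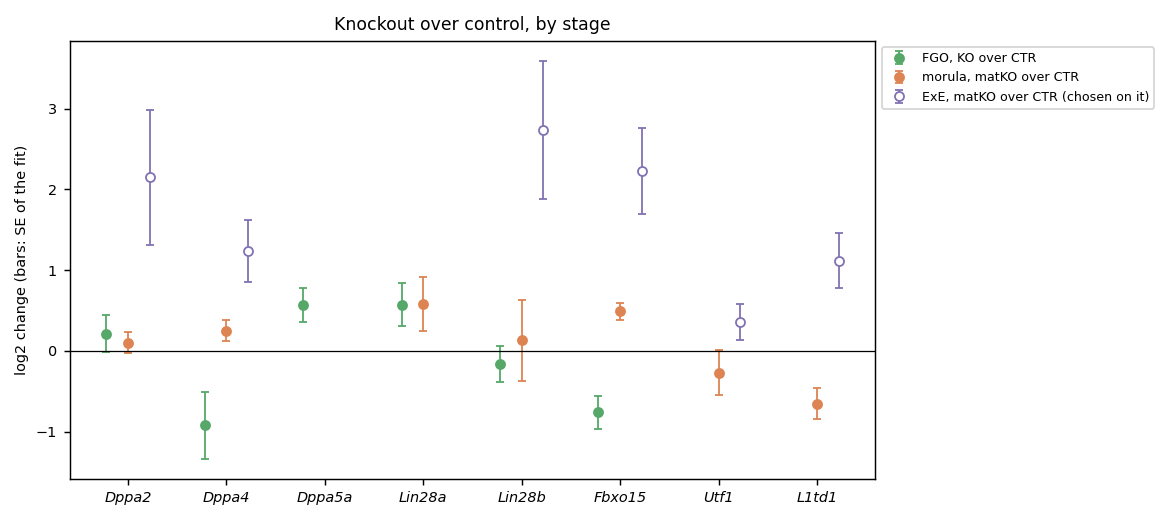
The fitted log2 change of KO or matKO over CTR is plotted on the vertical axis for each gene, with FGO in green, morulae in orange and ExE in open purple symbols, and bars of 1 SE; a missing point is a gene below the filter on low counts. In ExE, on which the genes were chosen, all 6 fitted values are above 0, while Fbxo15 lies at -0.76 in FGO and 0.49 in morulae.

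Between control stages, 5 members were much lower in ExE than in morulae. Folds between stages are ratios of mean CPM. The fit moves ExE up by 0.68 log2 units relative to CPM, so fitted falls are smaller. They were log2 -5.46 for Fbxo15 and -4.75 for Dppa2. Fbxo15 averaged 11.3 CPM in CTR ExE, against 781 CPM in CTR morulae, a level 69.3-fold lower. Lin28b averaged 0.459 CPM in CTR ExE, against 23.6 CPM in CTR morulae, 51.4-fold lower. That ExE mean rests on 4 reads, all in CTR replicate 2: the fitted log2 difference was -4.88, and -3.90 without CTR replicate 1, while without CTR replicate 2 no control read remained. Dppa2 averaged 4.46 CPM in CTR ExE, against 191 CPM in CTR morulae, 42.8-fold lower. The ratio was smaller for Dppa4, with 18.3 CPM in CTR ExE, against 170 CPM in CTR morulae, 9.28-fold lower. For Dppa4 the fitted log2 difference was -2.55, but -7.91 on maternal counts alone and -1.37 on paternal counts alone. Lin28a had 0 counts in all 6 ExE libraries. Taking 3 counts per group as the floor, it was at least 126-fold lower in CTR ExE than in CTR morulae, and at least 324-fold lower in matKO ExE than in matKO morulae. Of the paralogs, Lin28b had reads in 5 of 6 ExE libraries and Lin28a in 0 of 6.

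Utf1 went the other way and L1td1 had no clear direction. Utf1 averaged 141 CPM in CTR ExE, against 60.9 CPM in CTR morulae, 2.32-fold higher in CPM (fitted log2 1.88). L1td1 averaged 75.5 CPM in CTR ExE, against 134 CPM in CTR morulae. On the scale of the fit, which moves ExE up by 0.68 log2 units relative to CPM, L1td1 was at log2 -0.17 (SE 0.42), at -0.98 without ExE CTR replicate 1 and at 0.36 without ExE CTR replicate 2. Dppa5a had no assigned reads at either stage, so a change could not be measured. The ExE-over-morula contrast called 67.5% of 9977 genes (39.7% lower, 27.8% higher; 70.4% at an unadjusted p under 0.05, and 63.8% with ExE libraries apart and lower) with a median log2 change of -0.28, against -4.75 for the 7 members with reads.

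In ExE itself, the means of 6 of the 8 genes were higher in matKO than in CTR tissue, to differing degrees, and Lin28a and Dppa5a had no reads. Across all genes edgeR called 0 of 8386 in this contrast (0%), 13.8% had an unadjusted p under 0.05, and DESeq2 called 214. The values below describe how the genes were chosen. The median fitted log2 change was 1.69 over the 6 members with reads, against 0.00 over all genes. In bulk tissue, fewer cells of a type and less RNA per cell cannot be told apart.

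Fbxo15 had 86.0, 47.2, 27.6 and 52.4 CPM in matKO ExE, against 16.4 and 6.19 CPM in CTR ExE. All matKO libraries lay above both CTR libraries, by 4.73-fold on average (fitted log2 2.23, SE 0.53). Dppa2 had 33.5, 30.2, 9.45 and 6.48 CPM in matKO ExE, against 6.64 and 2.29 CPM in CTR ExE. The lowest matKO library lay below the higher CTR library, so the groups overlapped despite a 4.46-fold difference of the means (fitted log2 2.15, SE 0.84). Dppa4 had 61.4, 54.2, 30.3 and 28.0 CPM in matKO ExE, against 23.5 and 13.1 CPM in CTR ExE, without overlap and 2.38-fold higher (fitted log2 1.23, SE 0.38). Libraries lie apart upward for 12.5% of all genes in this contrast. For both Dppa genes, matKO replicates 1 and 2 were the high ones.

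Lin28b, the LIN28 paralog still detected in ExE, had 3.18, 3.75, 2.43 and 4.12 CPM in matKO ExE, against 0 and 0.917 CPM in CTR ExE. These rest on 51 reads in matKO libraries and 4 in CTR libraries, all 4 in CTR replicate 2. The ratio of CPM over the summed libraries was 7.20. Its 95% counting interval, 2.65 to 27.4, leaves out the spread between libraries. It is no test, since the gene was chosen on this contrast. L1td1 had 202.4, 141.4, 146.7 and 170.7 CPM in matKO ExE, against 109.97 and 41.0 CPM in CTR ExE, apart and 2.19-fold higher (fitted log2 1.12, SE 0.34). The 2 control libraries set the size of these differences. The fitted log2 value without CTR replicate 1, and without CTR replicate 2, was 1.93 and 0.60 for L1td1, 3.02 and 1.72 for Fbxo15, 3.04 and 1.61 for Dppa2 and 1.66 and 0.91 for Dppa4. For Lin28b it was 1.77 without CTR replicate 1, and without CTR replicate 2 no control read remained. Utf1 had 230.0, 220.6, 155.0 and 131.9 CPM in matKO ExE, against 144.8 and 137.6 CPM in CTR ExE. Its groups overlapped, with a 1.31-fold difference of the means (fitted log2 0.36, SE 0.22). Without matKO replicate 3, the library with the low maternal share, the fitted values were 2.44 for Fbxo15, 2.38 for Dppa2, 1.37 for Dppa4, 2.86 for Lin28b, 1.17 for L1td1 and 0.43 for Utf1.

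The higher level in matKO ExE remained below that of morulae for the genes with a marked stage difference. Against matKO morulae, mean CPM in matKO ExE was 20.03-fold lower for Fbxo15, 9.997-fold for Dppa2, 7.45-fold for Lin28b and 4.52-fold for Dppa4. L1td1 was 2.00-fold higher and Utf1 3.76-fold higher in matKO ExE than in matKO morulae.

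Some other trophoblast genes, picked after their values were seen, ran roughly with Dppa2, Dppa4 and Fbxo15 across the ExE libraries. Lin28b differed, being highest in matKO replicate 4 and at 0 in CTR replicate 1. L1td1 was lower in matKO replicate 2 than in the other matKO libraries, and Utf1 was lowest in matKO replicate 4. Eomes, which maintains trophoblast stem cells, had 348, 284, 168 and 198 CPM in matKO ExE, against 104 and 24.5 CPM in CTR ExE. Esrrb, another trophoblast stem cell factor, had 231, 183, 51.3 and 71.2 CPM in matKO ExE, against 30.8 and 2.06 CPM in CTR ExE. Ascl2 and Plac1, expressed in the ectoplacental cone and its derivatives, ran the other way. Ascl2 had 68.2, 162, 219 and 232 CPM in matKO ExE, against 353 and 464 CPM in CTR ExE, and Plac1 had 2.69, 469, 1000 and 125 CPM, against 830 and 1987 CPM. Among ExE markers, Tfap2c was lower too, with 157 to 404 CPM in matKO ExE, against 494 to 598 CPM in CTR ExE. Ets2 overlapped, with 107 to 176 CPM in matKO ExE, against 149 to 166 CPM in CTR ExE. CTR replicate 2 was the lowest of the 6 libraries for Eomes, Esrrb, Dppa2, Dppa4, Fbxo15 and L1td1, and matKO replicate 1 was the highest for each of these and for Utf1.

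Over whole marker lists, 9 of 11 tested ExE markers had a positive fitted change and their summed level was 1935 to 2337 CPM in matKO ExE, against 1514 to 1642 CPM in CTR ExE. Of 5 tested markers of the ectoplacental cone and giant cells, 1 was positive, with sums of 453 to 2439 CPM in matKO ExE, against 3023 to 5481 CPM in CTR ExE. Among 16 epiblast markers, 5 passed the filter on low counts and all 5 were positive. Sums over the 16 were 475 to 772 CPM in matKO ExE, against 317 to 534 CPM in CTR ExE. Most of each sum was Dnmt3b, with 453 to 699 CPM, against 316 to 524 CPM. Markers near 0 in CTR ExE passed the filter only through matKO libraries, as did Zic2, with at most 1 CTR read, against 6 to 29. Such markers could hardly come out lower, so the counts of positive markers here are only a description. Pou3f1 had 46.7, 23.7, 19.2 and 19.4 CPM in matKO ExE, against 7.58 and 0.459 CPM in CTR ExE, and T had 11.5, 3.50, 0.270 and 1.47 CPM, against 0.237 and 0.229 CPM. Zic2 averaged 3.44 ± 2.50 CPM in matKO ExE and 0.119 ± 0.168 CPM in CTR ExE (SD, n = 4 and 2). As for the members with ExE reads other than Lin28b, matKO replicate 1 was the highest for Pou3f1 and T. The epiblast gene Nanog had at most 1 read in any ExE library although it had 157 to 234 CPM in morulae, and Pou5f1 had no assigned reads at either stage. Visceral endoderm markers were positive in 3 of 3 tested, with 16 listed. Sums over the 16 were 58.6 to 88.9 CPM in matKO ExE, against 14.7 to 26.8 CPM in CTR ExE. Most of each sum was Dab2, with 44.5 to 61.7 CPM, against 12.2 to 22.3 CPM. Amn, with 6 to 10 reads in CTR libraries, and Rbp4, with 4 to 6, likewise passed the filter through matKO libraries. Dab2 averaged 49.9 CPM in matKO ExE, against 17.2 CPM in CTR ExE, Amn 8.94, against 1.87 CPM, and Rbp4 6.88, against 1.17 CPM. Spink1 reached 44 reads and Ttr 19 in matKO replicate 1, against 0 in CTR libraries, while Apoa1 and Hnf4a were at 0 in all. Decidua markers summed to 0.294 to 18.6 CPM in matKO ExE, against 0 to 0.229 CPM in CTR ExE, and blood markers to at most 0.733 CPM. The highest decidua value was 75 Prl8a2 reads in matKO replicate 1, also the highest library for most members, with 0 in the other ExE libraries. The part of tissue composition in the members' values was not tested.

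**Figure D3:**
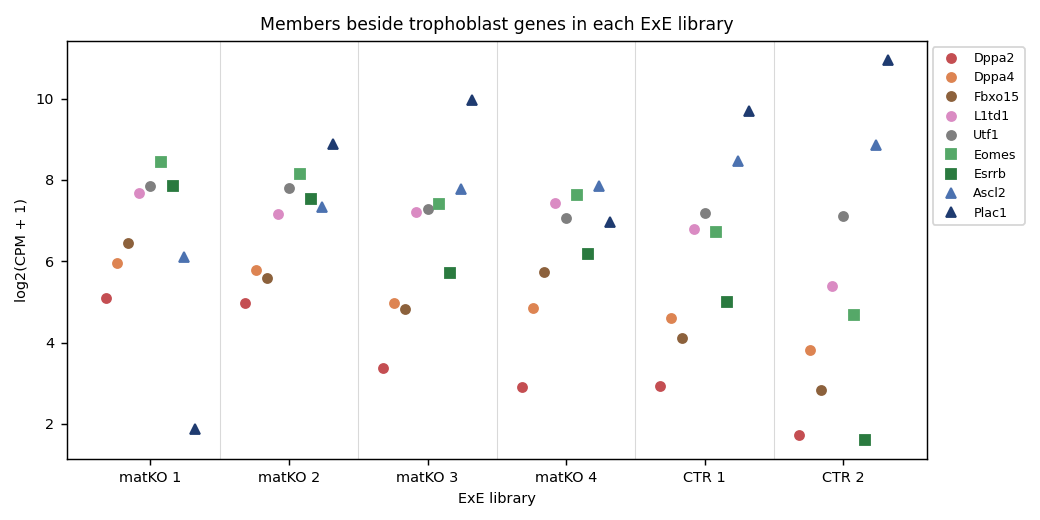
Each column is 1 ExE library, with log2(CPM + 1) on the vertical axis; circles are 5 of the members, squares the trophoblast stem cell genes Eomes and Esrrb, and triangles the ectoplacental cone genes Ascl2 and Plac1. CTR 2 is low for circles other than Utf1 and for squares and high for triangles, and matKO 1 is the highest library for the circles and squares and the lowest for the triangles, with Plac1 at 2.69 CPM.

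The allele columns separated the neighbours Dppa4 and Dppa2. They lie side by side on chromosome 16 (GRCm38.p6, Dppa4 at 48283735 to 48294292 and Dppa2 at 48310274 to 48319513), 15981 bases apart with 0 annotated protein-coding genes between them. In ExE, 9 of 675 Dppa4 reads were maternal in matKO tissue (1.33%, 95% exact Clopper-Pearson interval 0.611 to 2.52%), against 2 of 156 in CTR tissue (1.28%, interval 0.156 to 4.55%). The share was 0.893 to 2.11% over the 4 matKO libraries, against 1.010 and 1.754% in the CTR libraries. Dppa2 had the opposite skew, with 82.2% maternal reads in matKO ExE (interval 77.5 to 86.3%), against 78.9% in CTR ExE (interval 62.7 to 90.4%).

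In morulae neither gene was so skewed. Dppa4 was 55.6% maternal in matKO morulae, against 57.8% in CTR morulae, and Dppa2 was 65.5% maternal in both. A maternal share under 5% in every library was found for 0.574% of 6617 genes in CTR ExE and for 0.564% in CTR morulae. A share over 70% in every library was found for 6.01% in CTR ExE. Morc1, a germline ATPase gene that follows Dppa2 on the chromosome, had 13 maternal and 0 paternal reads in matKO ExE, against 15 and 1 in CTR ExE. Since every embryo had the same strain on the same side, parent and strain cannot be told apart.

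The tests of alleles fitted the matKO and CTR libraries of a stage together, so the spread came from both genotypes. The allele term of the fit gives the CTR value. In CTR morulae, 2 of 7 members were called, both towards the maternal allele, where 25.2% of 7637 genes were called (14.8% maternal, 10.4% paternal; 36.8% at an unadjusted p under 0.05). They were Dppa2 (log2 maternal over paternal 0.84, SE 0.11, adjusted p = 0.00286) and Dppa4 (0.37, SE 0.11, adjusted p = 0.0467, edgeR). The Dppa4 call was lost without any 1 of the 4 libraries (adjusted p up to 0.292). The allele difference did not pass a test of change with genotype in any of the 7 (0 of 7 called, 0.0393% of all genes; 0 of 7 at an unadjusted p under 0.05, where 8.20% of all genes were). A fit of the ExE libraries, added after the allele counts had been seen, called Dppa4 towards the paternal allele (log2 -6.16, SE 0.47, adjusted p = 1.25e-12) and Dppa2 towards the maternal allele (1.79, SE 0.55, adjusted p = 0.0112) in CTR ExE, where 31.5% of 6857 genes were called (17.2% maternal, 14.3% paternal; 40.1% at an unadjusted p under 0.05). The Dppa2 call was lost without either CTR library (adjusted p = 0.219 and 0.0545).

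The remaining members varied by stage and library. Fbxo15 was 49.9% maternal in matKO morulae, against 50.8% in CTR morulae. In ExE it was 83.2, 66.1, 62.7 and 82.0% maternal in matKO libraries, against 68.1 and 66.7% in CTR libraries, and its CTR value did not pass (log2 0.98, SE 0.38, adjusted p = 0.0534). The matKO libraries spread on both sides of the CTR libraries. Among them, replicates 1 and 4 were higher for Fbxo15 and also had the higher maternal share on the X chromosome. A link was not tested. Relative to the autosomal ratio of its library, replicate 3 stood at log2 1.64 for Fbxo15, within the 0.89 to 2.24 of the other matKO libraries. Utf1 was 45.1% maternal in matKO ExE, against 48.8% in CTR ExE, and L1td1 41.9%, against 47.0%. Replicate 3 gave the lowest share of both genes, 31.5 and 30.8%, and relative to its autosomal ratio it lay within the range of the other ExE libraries. Lin28b had 36 maternal of 51 reads in matKO ExE, against 3 of 4 in CTR ExE, too few to compare.

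**Figure D4:**
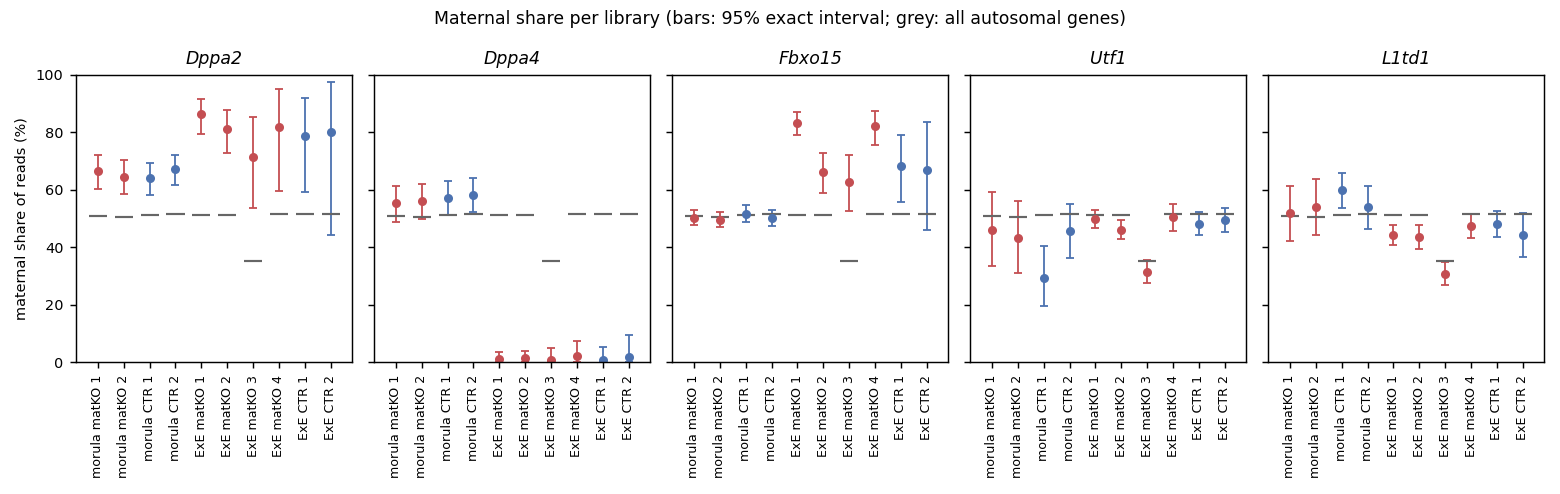
The maternal share of assigned reads is plotted in percent for each morula and ExE library (red matKO, blue CTR), with 95% exact intervals as bars and the share over all autosomal genes as grey lines. Dppa4 is at 55.2 to 58.3% in morulae and at most 2.11% in ExE libraries, Dppa2 is at 71.4% or more in every ExE library, and ExE matKO 3 has the lower grey line at 35.1%.

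The partners and targets of the members were looked at through lists. Their counts stand beside the shares over all genes: 5.35% higher and 1.87% lower in FGO, 0.0221% higher and 0.11% lower in morulae, and 27.8% higher and 39.7% lower in CTR ExE than in CTR morulae. Of let-7 biogenesis and LIN28 partner genes, 0 were called in FGO (11 tested), in morulae (11) and in ExE (12). The smallest p was that of Ago2 in FGO, the let-7 effector, with 67.6 ± 18.7 CPM in KO oocytes and 96.6 ± 14.2 CPM in CTR oocytes (SD, n = 2 each; log2 -0.63, adjusted p = 0.0741 by edgeR). In CTR tissue 3 were higher and 3 lower in ExE than in morulae (11 tested). Among the lower ones was Trim25, a ubiquitin ligase known as a cofactor of LIN28A, with 14.2 CPM in CTR ExE and 135 CPM in CTR morulae (log2 -2.57, SE 0.28, adjusted p = 7.43e-06).

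Of let-7 target genes, 1 of 22 rose in FGO and 0 fell. Igf2bp1, which encodes an mRNA-binding protein of fetal tissue, had 3.12 ± 0.875 CPM in KO oocytes and 0.0194 ± 0.0275 CPM in CTR oocytes (SD, n = 2 each; log2 6.92, adjusted p = 0.00248 by edgeR). None of 12 was called in morulae and none of 19 in ExE. The ExE gene with the smallest p was Hmga2, a chromatin protein, with 87.1 ± 19.0 CPM in matKO ExE and 54.0 ± 14.8 CPM in CTR ExE (SD, n = 4 and 2; log2 0.67, adjusted p = 0.252 by edgeR). Between control stages, 12 were higher and 5 lower in ExE among 20 tested, where 27.8% of all genes were higher and 39.7% lower. Arid3a, a trophoblast transcription factor, was higher (48.2 CPM in CTR ExE and 2.76 CPM in CTR morulae, adjusted p = 7.95e-07), as was Myc, a growth regulator (62.7 CPM in CTR ExE and 2.09 CPM in CTR morulae, adjusted p = 3.26e-06). Hmga2 was lower, with 54.0 CPM in CTR ExE and 349 CPM in CTR morulae (log2 -2.03, adjusted p = 3.44e-06).

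Of other ES cell associated transcripts, 2 of 24 rose and 0 fell in FGO, where 5.35% of all genes rose: Klf4 had 29.7 ± 21.2 CPM in KO oocytes and 2.82 ± 0.792 CPM in CTR oocytes, and Sox2 had 4.04 ± 2.64 CPM in KO oocytes and 0.343 ± 0.266 CPM in CTR oocytes (SD, n = 2 each; log2 3.25 and 3.40, adjusted p = 0.0193 and 0.0198 by edgeR). In morulae 1 of 22 fell, Dppa1 (88.4 ± 26.0 CPM in matKO and 308 ± 19.8 CPM in CTR morulae; log2 -1.76, adjusted p = 0.0399 by edgeR). In ExE 0 of 14 were called, the smallest p being that of Dnmt3l, a cofactor of DNA methylation, with 206 ± 51.2 CPM in matKO ExE and 109 ± 9.32 CPM in CTR ExE (adjusted p = 0.175 by edgeR, n = 4 and 2). Between control stages, 16 of 24 were lower and 7 higher in ExE, where 39.7% of all genes were lower and 27.8% higher. Dppa3, a maternal protein gene, had 1.40 CPM in CTR ExE, against 798 CPM in CTR morulae, and Gdf3 had 0.462 CPM, against 163 CPM.

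Of 2-cell genes that Dppa2 and Dppa4 are known to activate in ES cells, 1 of 8 fell in FGO and 0 rose. Zscan4d had 2.68 ± 1.15 CPM in KO oocytes and 13.7 ± 5.43 CPM in CTR oocytes (SD, n = 2 each; log2 -2.47, adjusted p = 0.00773 by edgeR), and 0 of the 8 had a positive fitted change, with a median of -0.72 against 0.00 over all genes. The Zscan4 genes are near-identical copies, so the division of reads among them is uncertain and they are not separate measurements. Of the 21 listed genes with a row of counts, only these 8 passed the filter in FGO. Low ones such as Zscan4c (0.555 CPM in KO oocytes, against 1.96 CPM in CTR oocytes) passed it through the CTR libraries. The shared sign and the median are therefore only a description. In morulae 0 of 6 were called, all 6 had a positive fitted change, and the median was 0.36 against -0.02. In CTR ExE 5 of 5 were lower than in CTR morulae, with Pramel6 at 0 CPM, against 1096 CPM, and Pramel7 at 0 CPM, against 721 CPM. All 5 averaged 0 CPM in CTR ExE and passed the filter through the CTR morula libraries, so their direction was fixed in advance. None of the listed 2-cell genes passed the filter within ExE. Of the SCF core genes with which F-box proteins assemble, 0 of 5 were called in FGO, 0 of 4 in morulae and 0 of 4 in ExE. In CTR tissue 3 of 4 were higher and 1 lower in ExE than in morulae, with Skp1a at 161 CPM in CTR ExE and 55.1 CPM in CTR morulae (log2 2.22, SE 0.21, adjusted p = 1.85e-06).

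The genes most like the members over the 10 morula and ExE libraries were Efnb2, Ptpn13, Arhgap42, Mrps23 and Zfp110. Their Pearson r with the mean standardised log2(CPM + 1) profile of the 7 members with reads was 0.987, 0.984, 0.983, 0.982 and 0.982 in that order. The libraries share stage, which alone sets much of r: the median over 8438 candidate genes was 0.617 and 3.46% lay above 0.9. Each of the 7 members is itself part of that mean, and they were chosen on these values, so their own r is only a description. It was 0.968 for Dppa4, 0.962 for Dppa2, 0.955 for Fbxo15, 0.907 for Lin28b and 0.812 for Lin28a, but 0.358 for L1td1 and -0.62 for Utf1. Efnb2, which encodes an ephrin ligand, had 10.7 CPM in matKO ExE, against 1.41 CPM in CTR ExE, and 30.2 CPM in matKO morulae, against 57.2 CPM in CTR morulae.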

How the data were processed

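The series labels 18 RNA samples. The count table used here has columns for 14 of them, and the 4 samples of B6 and PWK crosses were not analysed here. The authors deposited whole-number counts per gene, 1 column per FGO library and 1 maternal and 1 paternal column per morula or ExE library, per the file headers. Maternal and paternal counts were added, which leaves out unassigned reads. The submitters' processing notes name Trim Galore 0.6.4, STAR 2.7.3 and RSEM 1.3.1 among the tools and the build mm10. Which made these counts, and how reads were assigned to a parent, is not given in the sources used here. Libraries were SMART-Seq v4 and Nextera XT, per the labels' protocols, which do not mark strand.

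Comparisons used edgeR 4.0.16 in R 4.3.3 (TMM, filterByExpr, robust quasi-likelihood F test) over all genes, with Benjamini-Hochberg adjusted p under 0.05 as a call. CPM were computed from total counts. Alleles were tested with a term per library, offsets from autosomal totals and a mean of at least 20 reads. Tests were checked on simulated data, where 4-fold changes were recovered for 93.8% of changed genes in FGO (13448 genes), 93.75% in morulae (9034) and 43% for the interaction (14682). Of 2-fold changes, 36.7% were recovered in FGO and 32.0% in morulae; the members' fitted changes there were smaller than this. Intervals and floors of 3 counts cover counting error only, since these reads carry no molecular identifiers.

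Members and lists were chosen with earlier results of these data known. Named genes are the members, Pcgf1 and Pcgf6, up to 3 genes with the smallest p per list and comparison, and the 5 genes most like the members by Pearson r with a mean of at least 5 CPM; the marker genes named beside ExE and Morc1 were chosen after their values were seen. Alternatives were DESeq2 1.42.0 and its size factors, no filter, single alleles, each library left out and a replicate block. Symbols were matched to RefSeq (GRCm38.p6), 23975 directly.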

Additional observations from a re-analysis of the deposited data

Results flagged for a closer look

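Fbxo15 had a different knockout effect in morulae than in oocytes. The log2 change in morulae minus that in FGO was 1.24 (SE 0.25, adjusted p = 0.0213, interaction term of edgeR), from 0.49 in matKO over CTR morulae and -0.76 in KO over CTR oocytes, neither of which passed its own test. Fbxo15 had 19.4 and 20.05 CPM in KO oocytes, against 27.5 and 35.1 CPM in CTR oocytes, and 1073 and 1062 CPM in matKO morulae, against 716.7 and 844.8 CPM in CTR morulae. The call was lost on leaving out FGO CTR replicate 2, morula CTR replicate 1 or either matKO morula library.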

How the results depend on the processing

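Alternatives gave 466 values of members, of which 388 stayed the same, 28 reversed, 12 lost a call, 16 gained one and 22 moved. For tested contrasts, the same means that direction and side of the threshold were kept. For the 2 described ExE contrasts, it means a shift within the spread between libraries, and moved means a larger shift. Counts of called genes moved most. In FGO, 972 became 1630 without the filter on low counts, and members called went from 0 to 2 without it and to 1 with DESeq2. In morulae, 12 became 54 with DESeq2 size factors, 489 without the filter, 208 with DESeq2 and 68 on paternal counts alone, with 1 member, Fbxo15, called without the filter and by DESeq2. In ExE, 0 became 112 without the filter, 214 with DESeq2 and 5 on maternal counts alone. For the morula minus FGO difference, 386 became 791 without the filter and 675 with DESeq2, and Dppa2 reversed to 0.0361 with DESeq2 size factors and 0.0356 with DESeq2, as Lin28a did to 0.16 with both and to 0.0019 without the filter. The allele by genotype count went from 3 to 9 at a mean of 10 reads, and Fbxo15 there reversed to 0.0016 with all-gene offsets and Dppa2 to -0.0030 without offsets. In CTR morulae, members called by allele went from 2 to 1 with all-gene offsets and Fbxo15 reversed to 0.0504 without offsets. In ExE, without offsets, the allele fit called 787 genes and 1 member, against 2162 and 2. The cause was not tested.

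Leaving out 1 library at a time gave 767 to 2029 genes in FGO (0 to 2 members), 7 to 524 in morulae (0 to 1), 0 to 6 in ExE, 124 to 558 for the morula minus FGO difference (0 to 2), 804 to 1990 by allele in CTR morulae (1 in each case), 0 to 3 for allele by genotype and 1386 to 2201 by allele in CTR ExE (1 to 3). Signs turned for Dppa2 (-0.19 to 0.53) and Lin28b (-0.33 to 0.0164) in FGO, for Lin28b (-0.80 to 0.69) and Utf1 (-0.54 to 0.0744) in morulae, and for Dppa2 (-0.36 to 0.32), Lin28a (-0.37 to 0.41) and Lin28b (-0.67 to 0.86) in the stage difference. By allele they turned for Fbxo15 in CTR morulae (-0.0759 to 0.0161) and, by genotype, for Dppa2 (-0.0626 to 0.14), Fbxo15 (-0.0634 to 0.0286), Lin28a (-0.33 to 0.53), Lin28b (-0.29 to 0.41) and Utf1 (-0.0198 to 1.00).

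Replicate numbers recur across groups, but with 2 pairs and no shared source in the labels they are numbers only (correlation of same-numbered deviations 0.25 in FGO, 0.18 in morulae, 0.26 and 0.084 in ExE). With the number as a replicate block, 2021 genes and 2 members (Dppa4 and Fbxo15, lower) were called in FGO, 310 genes and 1 member (Fbxo15, higher) in morulae and 878 genes in ExE. In morula libraries 3 counts equal 1.78 to 2.31 CPM.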
